A study of Mus musculus with 3 samples.

Results

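A single distal region is the case of a gene to which only 1 stretch of open chromatin was assigned, lying away from the gene's own start. The deposited table of open chromatin listed 18890 genes, and 5131 of them had 1 merged region, the stretch obtained by joining overlapping peaks of the libraries. Genes were selected from these where every peak called in the vehicle, UK5099 or lactate library lay more than 1000 bases from the gene's start. The rule was met by 2303 genes, or 12.2% of the table. Neighbouring genes that carried identical heights in all 3 libraries were counted once, since nearly all of them share the region, which left 2058 single distal regions of 17266 distinct rows. Of the other genes with 1 region, 58 had no called peak in the 3 libraries and 73 had called peaks on both sides of the limit. The selection used the called peaks and their distances, so the distances and the presence of a called peak are a description and not a finding.

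ATAC-seq, which reads out accessible DNA, had been run on organoids grown from basal cells of mouse prostate, with Wildtype genotype in every group. The groups were Vehicle, UK5099 at 10 µM and sodium lactate at 20 mM, each cultured for 7 days and each represented by 1 library. With 1 library per group no difference has a replicate check, no test could be run between groups, and each value describes these libraries. The measured value, called height here, is the stack of reads at the highest point of a region after the scaling applied by the authors. In bulk organoids a lower height can come from fewer cells with the region open or from less opening per cell, and these cannot be told apart.

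Open chromatin falls into promoters, where transcription starts, and distal elements such as enhancers and insulators, which lie away from starts and carry most of the differences between cell types. Enhancers are opened by sequence-specific factors such as AP-1, GATA, forkhead and TEAD proteins, whereas CTCF sites serve as boundaries of chromatin loops. UK5099 blocks the mitochondrial pyruvate carrier, so that pyruvate is kept out of the mitochondria, and lactate is the product that the cytoplasm makes from pyruvate. A distal region is listed for a gene because of its position, and whether it controls that gene was not measured.

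The sequences below are 200-base windows at the centre of 6 single distal regions, plus strand of GRCm38 (mm10), and are shown because these regions had among the highest or lowest ratios between libraries or, for Mir200b, among the greatest heights. Capitals mark words searched on both strands. AP-1 factors bind the word TGANTCA, and TEAD factors, which act in the Hippo pathway, bind GGAATG. The word AGATAA is bound by factors of the GATA family. HOXB13, a homeobox factor of prostate, binds TTTATNG, and forkhead factors such as FOXA1 bind the word TGTTTAC. The CTCF motif and a pair of p53 family cores were searched as well. The short E-box word CANNTG was also searched but is not marked here. The window near Sprr3 (chr3:92455164-92455363, between genes) held an AP-1 and a TEAD word. That near Kprp (chr3:92814860-92815059, between genes) held none of the words marked here. The window upstream of Asb18 (chr1:90020428-90020627, between genes) held an AP-1 and a TEAD word, that upstream of Postn (chr3:54358524-54358723, between genes) a GATA and a HOXB13 word, and that in an intron of Lyg1 (chr1:37954860-37955059) an AP-1 word. The window upstream of Mir200b (chr4:156059772-156059971, between genes) held none of the marked words either. The unmarked E-box word was present in both the Kprp and the Mir200b window. A match is a description of the letters and not evidence of binding.
Sprr3: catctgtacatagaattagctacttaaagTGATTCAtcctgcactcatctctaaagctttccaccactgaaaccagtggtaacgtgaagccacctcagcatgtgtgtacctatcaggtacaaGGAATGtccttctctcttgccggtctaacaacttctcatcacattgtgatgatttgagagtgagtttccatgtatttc
Kprp: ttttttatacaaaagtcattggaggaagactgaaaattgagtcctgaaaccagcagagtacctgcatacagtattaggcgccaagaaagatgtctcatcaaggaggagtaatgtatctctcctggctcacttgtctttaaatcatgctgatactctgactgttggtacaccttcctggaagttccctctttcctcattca
Asb18: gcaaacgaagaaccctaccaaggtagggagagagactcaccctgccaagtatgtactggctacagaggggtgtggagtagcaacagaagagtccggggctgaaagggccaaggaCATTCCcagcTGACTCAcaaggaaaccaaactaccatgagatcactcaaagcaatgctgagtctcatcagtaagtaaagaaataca
Postn: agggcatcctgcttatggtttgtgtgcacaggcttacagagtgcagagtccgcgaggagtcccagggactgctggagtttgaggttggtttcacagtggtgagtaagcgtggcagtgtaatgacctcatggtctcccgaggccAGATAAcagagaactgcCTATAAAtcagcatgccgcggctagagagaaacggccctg
Lyg1: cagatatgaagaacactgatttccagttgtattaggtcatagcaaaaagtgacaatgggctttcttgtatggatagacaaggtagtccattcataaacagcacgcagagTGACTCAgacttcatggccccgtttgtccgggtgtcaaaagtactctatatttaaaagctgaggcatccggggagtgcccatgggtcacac
Mir200b: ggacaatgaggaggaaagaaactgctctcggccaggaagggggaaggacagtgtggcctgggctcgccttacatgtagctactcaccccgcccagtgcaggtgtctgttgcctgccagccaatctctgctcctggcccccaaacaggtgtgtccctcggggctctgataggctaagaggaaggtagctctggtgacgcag

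Single distal regions were low. In the vehicle library their median height was 29.9, with 32 in the UK5099 library and 33.0 in the lactate library, against 64.9, 73 and 74.9 in the 2502 regions of genes whose single region lay at the promoter. The middle of the distribution, from the lower to the upper quartile, ran from 18.4 to 59.1 in vehicle, from 19 to 65 in UK5099 and from 19.8 to 66.0 in lactate. Heights of the distal and promoter regions thus overlapped in each library. Of the distal regions, 55.4% fell into the lowest quartile class of mean height of all genes, against 22.6% of the single promoter regions. The median single distal region rested on 32 stacked reads in UK5099, against 52 and 70 in the vehicle and lactate libraries, so the UK5099 library gave the least precise heights. Relative to UK5099, the scaling steps of the table gave 1.74 times the depth in vehicle and 2.12 times in lactate.

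A peak was called in all 3 libraries for 1162 single distal regions (56.5%), compared with 88.1% of single promoter regions. Calls in lactate alone were made for 217 regions, in UK5099 alone for 165 and in vehicle alone for 134. The regions called in UK5099 alone had a median height of 20 in UK5099, 10.9 in vehicle and 11.8 in lactate. Those called in vehicle alone had medians of 17.0 in vehicle, 11 in UK5099 and 12.3 in lactate. Libraries without a call thus also held signal at these regions. Where more than 1 library had a call (1542 regions), the outermost peaks lay a median of 32 bases apart.

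Many of the regions chosen as distal to 1 gene lay at the start of another. In the GENCODE annotation 743 of the 2058 (36.1%) were within 1000 bases of an annotated transcript start. By gene symbol, 629 of these starts belonged to another gene and 114 to another transcript of the listed gene. The remaining 1315 regions lay more than 1000 bases from every annotated start. Regions near a start had a median height of 54.0 in vehicle, 59 in UK5099 and 60.3 in lactate, and those away from starts had 24.1, 25 and 25.9. All 3 libraries had a called peak in 82.1% of the regions near a start and in 42.0% of those away from one. The windows near a start had a median GC content of 62%, and the windows away from starts 49.5%, close to the 50% of all regions of the table away from starts. The ratio of observed to expected CpG was 0.74 near starts, 0.22 away from them and 0.82 in single promoter regions. In each of these measures the regions near a start lay closer to single promoter regions than those away from starts did. Of the latter, 610 lay in introns, 556 between genes, 72 in coding exons, 40 in UTRs and 37 in exons of non-coding transcripts.

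**Figure D1:**
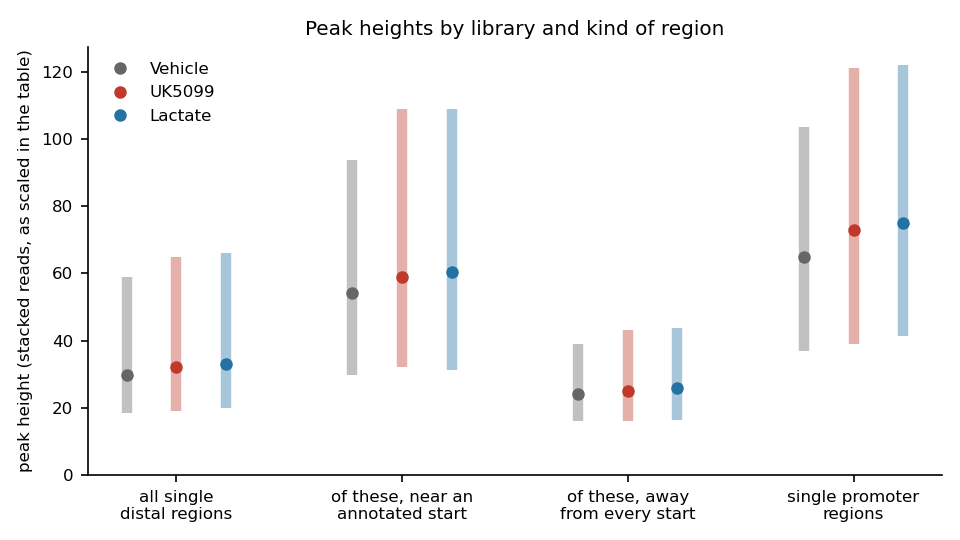
Median (point) and quartiles (bar) of the peak height, in stacked reads as scaled in the table, for each of the 3 libraries (1 per group). Single distal regions near an annotated start reach medians of 54.0 to 60.3, those away from every start 24.1 to 25.9, and single promoter regions 64.9 to 74.9.

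The genes listed with a single distal region differed in kind from the rest of the table. Protein-coding genes made up 66.4% of them, against 84.5% of all genes in the table and 88.3% of genes with a single promoter region. Long non-coding RNA genes made up 13.4%, pseudogenes 5.83% and microRNA genes 3.69%, against 7.73%, 1.22% and 1.69% of the table. Against the 12.2% of all genes, some families were well represented. Among 46 olfactory receptor genes, 29 had a single distal region, as had 10 of 13 vomeronasal receptor genes and 10 of 18 keratin-associated protein genes, which encode hair proteins. Zinc finger (Zfp) genes had 15 of 331, and cadherins and protocadherins 1 of 61. None of the 18 basal, 18 luminal and 11 luminal progenitor markers found in the table had a single distal region, so these defining genes are outside the set. Among markers of other cell types, 2 of 7 stromal (28.6%), 2 of 9 endothelial (22.2%) and 3 of 10 immune genes (30%) had one, shares that exceeded that of all genes but rest on few genes.

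Between UK5099 and vehicle, heights at single distal regions were more widely spread than at promoters. The median ratio of UK5099 to vehicle was 1.10, with quartiles of 0.838 and 1.36, among the 2057 regions above 0 in both libraries. E430002N23Rik, a predicted transcript, was left out of the ratio because its region was listed at 0 in UK5099. A ratio of 1.5 or more was found in 382 regions (18.6%) and a ratio of 0.5 or less in 133 (6.47%). Over all genes these shares were 9.28% and 1.33%, and in single promoter regions 8.19% and 1.44%. A call in any of the libraries admitted a region, so a region high in a single library could enter. Among the 1162 regions with a peak called in all 3 libraries, the shares were 13.2% and 1.38%. The width between the quartiles on the log2 scale was 0.70 for single distal regions, 0.38 for single promoter regions and 0.29 for the 620 genes with 10 or more regions. Heights of genes with several regions are averages over them. The values for all genes and for these 620 are thus an unlike measure, and only the promoter regions are like the distal ones. The exact counting interval of the ratio (Clopper-Pearson, 95%) lay above the median gene for 220 of the 382 and below it for 125 of the 133. These intervals cover counting error only. The median gene stood at 1.15, nearer to 1.5 than to 0.5, so the higher and lower counts cannot be set against each other.

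Lactate against vehicle gave a median ratio of 1.12 (quartiles 0.922 and 1.35). At 1.5 or more were 297 regions (14.4%), against 6.2% of all genes, and at 0.5 or less were 50 (2.43%), against 0.498%. In single promoter regions the shares were 7.19% and 0.48%. The counting interval lay above the median gene for 145 of the 297 and below it for 48 of the 50. With a peak called in all 3 libraries, 9.72% of regions were at 1.5 or more and 0.43% at 0.5 or less. Between the treated libraries, the median ratio of UK5099 to lactate was 0.969 (quartiles 0.764 and 1.23). Here 266 regions (12.9%) reached 1.5, against 3.65% of all genes, and 127 (6.17%) were at 0.5 or less, against 1.46%. Single promoter regions had 3.40% and 1.72%. The counting interval lay above the median gene for 193 of the 266 and below it for 114 of the 127. With a peak called in all 3 libraries, the shares of UK5099 against lactate were 7.14% and 1.81%. The comparisons with vehicle share the vehicle library and are given side by side only.

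The median gene itself stood at 1.15 in UK5099 and at 1.18 in lactate relative to vehicle, shifts of 0.21 and 0.24 on the log2 scale. Set against the median gene, the median single distal region was at 0.956 in UK5099 and 0.953 in lactate, on the other side of 1. When the libraries were scaled by the median of ratios, 264 single distal regions were at 1.5 or more and 193 at 0.5 or less for UK5099, and 147 and 102 for lactate. The share of regions on the higher side among those past either limit was 74.2% as deposited and 57.8% after that scaling for UK5099, and 85.6% and 59.0% for lactate. For UK5099 against lactate it was 67.7% and 70.5%. After that scaling all genes were at 1.5 or more in 4.02% and at 0.5 or less in 2.25% for UK5099, against 12.8% and 9.38% of single distal regions. The shares on the higher side rest on unequal limits, since 0.5 lies farther from 1 than 1.5 on the log2 scale. With the inverse of 1.5 as lower limit, as deposited, 382 regions were higher and 280 lower in UK5099 against vehicle. In lactate against vehicle 297 were higher and 148 lower, and in UK5099 against lactate 266 were higher and 306 lower.

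**Figure D2:**
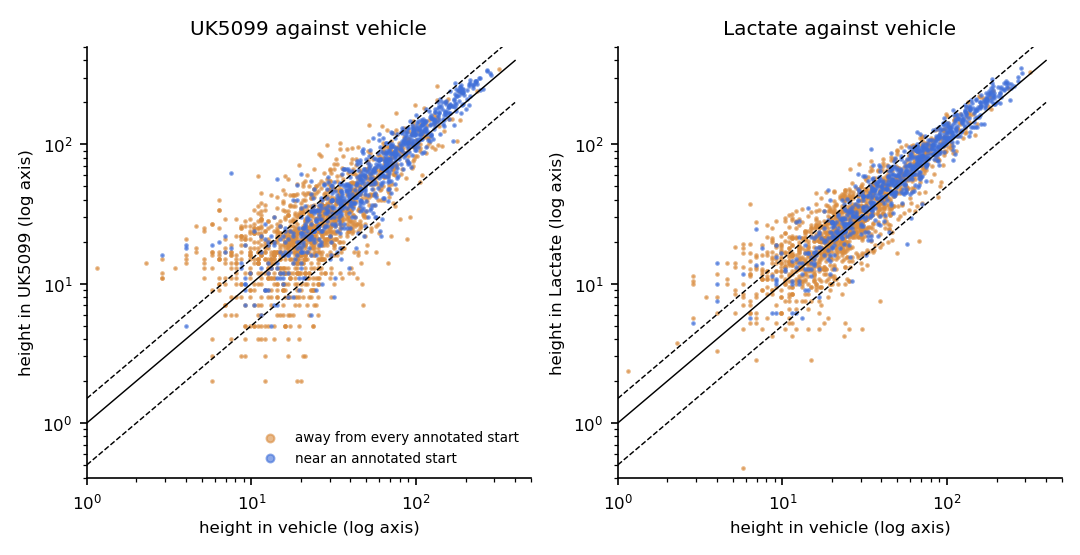
Height of each single distal region in UK5099 (left) or lactate (right) against its height in vehicle, on log axes, with 1 point per region and 1 library per group. The solid line marks equal heights and the dashed lines ratios of 1.5 and 0.5. The region at 0 in UK5099 is not drawn at left, and points past the dashed lines are mostly low and away from annotated starts.

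Much of the spread went with low height. In the lowest quartile class of mean height of all genes, 22.8% of single distal regions were at 1.5 or more in UK5099 against vehicle and 10.0% at 0.5 or less, and in the highest quartile class 7.95% and 0% were. Within a quartile class the distal regions still exceeded the promoter regions, with 22.8% against 15.4% at 1.5 or more in the lowest quartile class, 19.1% against 9.97% in the second, 12.9% against 6.72% in the third and 7.95% against 4.4% in the highest. The regions near an annotated start, at 15.0%, 13.0%, 11.6% and 4.84% from the lowest to the highest class, were close to the promoter regions in the lowest and highest classes and above them in between. Those away from every start had 24.7%, 23.6%, 14.7% and 15.4%. Over all heights the regions away from starts were at 1.5 or more in 303 of 1315 cases (23.1%) and at 0.5 or less in 116 (8.83%), against 79 (10.6%) and 17 (2.29%) of the 743 regions near a start. For lactate the corresponding shares of all regions away from starts and near a start were 18.2% and 7.81%, and for UK5099 against lactate 16.9% and 5.92%. The parts of counting error and of the called peaks that admitted the regions were not tested in these shares.

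**Figure D3:**
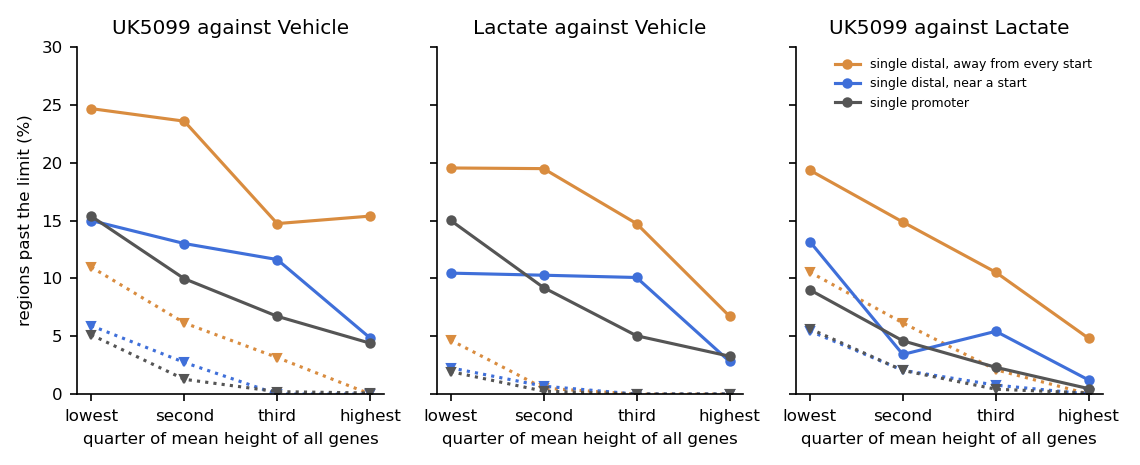
Percent of regions at a ratio of 1.5 or more (solid lines, circles) and of 0.5 or less (dotted lines, triangles) by quartile class of mean height of all genes, for each pair of libraries. In UK5099 against vehicle the regions away from every start run from 24.7% in the lowest quartile class to 15.4% in the highest, and single promoter regions from 15.4% to 4.4%.

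Median ratios lay close together in the classes of position relative to the listed gene. Upstream of the gene were 713 regions (34.6%), at a median of 5047 bases from the start, 571 (27.7%) lay within the gene at a median of 9432 bases, and 770 (37.4%) lay downstream at a median of 10415 bases. The other 4 had peaks both within and downstream of the gene. An annotated start of any transcript was near for 40.4% of upstream, 21.5% of in-gene and 42.9% of downstream regions, and median heights in vehicle were 34.5, 24.1 and 32.8. The median ratio of UK5099 to vehicle was 1.11 upstream, 1.07 in the gene and 1.13 downstream. In lactate it was 1.12, 1.09 and 1.14. The widest gap between these classes was 0.08 on the log2 scale for UK5099 and 0.07 for lactate, within quartile widths of 0.60 to 0.79 for UK5099. Ratios of 0.5 or less in UK5099 were found in 6.74% of upstream, 8.76% of in-gene and 4.55% of downstream regions. Among regions away from starts these shares were 9.20%, 10.0% and 7.27%. In lactate ratios of 0.5 or less were found in 3.23% upstream, 3.33% in the gene and 1.04% downstream, and away from starts in 4.47%, 4.02% and 1.59%, with the downstream shares resting on 8 and 7 regions. From the nearest to the farthest of 5 classes of distance, the median ratio of UK5099 to vehicle was 1.11, 1.07, 1.13, 1.10 and 1.11, with no order.

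The regions nearest to the limit on its inner side were those of A830052D11Rik at 1004 bases, Gja10 at 1006 and Magee1 at 1044. Their heights in vehicle, UK5099 and lactate were 124, 119 and 147 for A830052D11Rik, 26.4, 16 and 18.4 for Gja10, and 11.5, 16 and 13.7 for Magee1. Just outside were Gm11762 at 982 bases with heights of 12.6, 11 and 14.6, Hoxb1 with peaks from 978 to 1090 bases and heights of 29.3, 26 and 39.1, and Crybb3 at 976 bases with heights of 21.3, 10 and 17.4. The values on both sides of the limit overlapped.

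Sprr3 and Kprp were among the 3 named genes with the highest ratio of UK5099 to vehicle at or above the median mean height of single distal regions, 31.9. Lower regions, with fewer reads behind a ratio, were not ranked, and the rankings that follow keep to this limit. Sprr3, which encodes a small proline-rich protein of the cornified envelope, had its region 3456 bases from the start, on the downstream side, with heights of 28.7 in vehicle, 99 in UK5099 and 32.5 in lactate. The UK5099 library alone was high, at 3.45 times vehicle (counting interval 2.43 to 4.94) and 3.05 times lactate (2.22 to 4.20). Kprp, a keratinocyte proline-rich protein gene of the same chromosome, had 19.5, 71 and 29.7, with a UK5099 ratio of 3.63 (2.38 to 5.64). This region, 12287 bases from the Kprp start, was also listed for Lce1k, a late cornified envelope gene. The region downstream of Bcl2l10, a BCL2 family gene, stood at 26.4, 83 and 42.9, a ratio of 3.14 (2.16 to 4.60).

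Gpr81 (Hcar1), the receptor for lactate at the cell surface, had a region 10164 bases from its start, on the downstream side. The region was also listed for the neighbouring nicotinic acid receptor gene Niacr1 (Hcar2), whose annotated start was the nearest, at 4357 bases. Heights at the region were 24.1 in vehicle, 66 in UK5099 and 45.7 in lactate. Both treated libraries were above vehicle, at 2.73 times (1.83 to 4.13) in UK5099 and 1.89 times (1.31 to 2.79) in lactate. Il19, a cytokine of the IL-10 family, had 21.8, 60 and 27.8, high in UK5099 alone. The same held for Bves, a Popeye domain membrane protein, with 21.3, 55 and 21.2, where vehicle and lactate were level. The region shared by Tcap and Pnmt gave the highest ratio above this limit of height, at 3.90 (2.39 to 6.52), from heights of 14.4, 56 and 34.9. It lay in an intron of Pgap3, 408 bases from an annotated Pgap3 start, and was called in the treated libraries only. Hist2h4, with 20.1, 61 and 27.3, lay 181 bases from the start of the predicted gene Gm20627.

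At or above the same mean height of 31.9, the lowest ratio in UK5099 was that of 3110009F21Rik, a long non-coding RNA gene, with heights of 47.7 in vehicle, 7 in UK5099 and 42.9 in lactate, a ratio of 0.15 (0.057 to 0.32). Asb18, an ankyrin repeat and SOCS box gene, had 67.8, 14 and 20.3. Both treated libraries were low here, at 0.21 (0.11 to 0.36) and 0.30 (0.21 to 0.43) of vehicle. Postn, which encodes the matrix protein periostin, had 88.5, 21 and 41.9, again with both treated libraries below vehicle, at 0.24 (0.14 to 0.38) and 0.47 (0.36 to 0.62). A peak was called at the Postn region in vehicle only. The intronic region of Meox2, a homeobox factor of mesoderm, had 70.7, 22 and 38.2, and that of Lyg1, a lysozyme-like gene, 92.0, 30 and 53.7. In each of these 4 genes with a protein product UK5099 was the lowest library and vehicle the highest. Olfr372 (56.9, 17 and 48.5), Mir3967 (50, 17 and 44.8) and Abcc2 (60.9, 22 and 69.7), a transport pump for conjugated anions, were low in UK5099 only. The Abcc2 region lay 701 bases from an annotated Abcc2 start, in a coding exon, and was also listed for Dnmbp. The Asb18 and Lyg1 windows printed above hold an AP-1 word although their regions were low in UK5099.

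**Figure D4:**
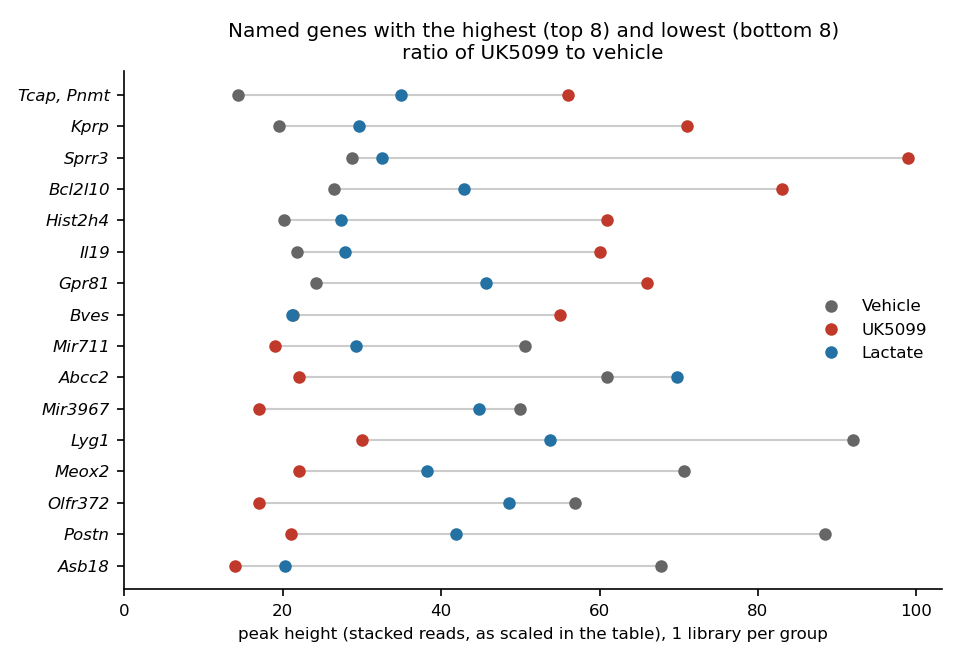
Heights in the 3 libraries (1 per group) for the 8 named genes with the highest and the 8 with the lowest ratio of UK5099 to vehicle among single distal regions at or above the median mean height. UK5099 (red) is the highest library in the upper 8 and the lowest in the lower 8. The choice of genes fixes its order against vehicle. At Bves the vehicle point lies under the lactate point.

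In lactate the highest ratio among named genes at or above a mean height of 31.9 was that of Aim2, a sensor of cytosolic DNA, with heights of 34.5 in vehicle, 52 in UK5099 and 92.3 in lactate, a ratio of 2.68 (2 to 3.64). The region was 1596 bases upstream of the listed start and 188 bases from another annotated Aim2 start. Ktn1, which encodes the vesicle anchor kinectin, had 18.4, 39 and 45.7, with both treated libraries above vehicle. Atoh1, a transcription factor of sensory and secretory cells, had 34.5, 38 and 68.8, high in lactate alone, at 1.99 times vehicle (1.47 to 2.74). Below vehicle in lactate, beside Asb18 and Postn, were Gtsf1 (49.4, 33 and 16.5), a factor of the piRNA pathway of germ cells, and Tpbpb (57.5, 30 and 19.3), a trophoblast gene. For both, lactate was the lowest library. The Tpbpb region lay 121 bases from an annotated start of Ctla2b and was also listed for Ctla2b. The Prss46 region, shared with Prss45, had 70.7, 98 and 37.2, so that lactate was low and UK5099 high. Its ratio of UK5099 to lactate was 2.63 (1.94 to 3.59). This region lay 130 bases from an annotated Prss46 start and was also listed for Prss50.

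Directly between the treated libraries, and with the same limit of height, the named genes with the lowest ratio of UK5099 to lactate were Cuzd1 (44.3, 17 and 58.0 in vehicle, UK5099 and lactate), at 0.29 (0.17 to 0.49), Abcc2, at 0.32 (0.19 to 0.50), and Pilra (46.0, 28 and 81.5), at 0.34 (0.22 to 0.51). Pilra encodes an inhibitory receptor of myeloid cells. Lactate was the highest library in all 3 of these genes. At the opposite end, after Sprr3, Prss46, Bves, Kprp and Hist2h4, stood Cd5l with 47.7, 93 and 42.9, a macrophage-secreted protein, and Hgd, an enzyme of tyrosine breakdown, with 27.6, 53 and 25. The Cd5l region lay in an intron of Fcrl1, 541 bases from an annotated Fcrl1 start, and was also listed for Fcrl1.

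Among the 8 greatest heights, ratios to vehicle ran from 1.04 (Clec11a in lactate) to 1.27 (AB124611 in UK5099, counting interval 1.10 to 1.46). Clec11a, a growth factor of the C-type lectin family, had 320, 347 and 331 at an intronic region 1775 bases from the start, the only one of the 8 highest regions away from every annotated start. The region 4122 bases upstream of Mir200b, counted once for Mir200b, Mir200a and Mir429, had 283 in vehicle, 324 in UK5099 and 351 in lactate, with ratios of 1.14 (0.99 to 1.32) and 1.24 (1.11 to 1.39). These microRNAs keep epithelial cells epithelial by repressing Zeb1 and Zeb2, and the region lay 70 bases from the start of the predicted transcript Gm13648. Their mature sequences, as given by RefSeq, are printed with the seed (bases 2 to 8) in capitals to show that miR-200b and miR-429 share 1 seed and miR-200a has another.
miR-200b-3p: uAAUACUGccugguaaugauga
miR-429-3p: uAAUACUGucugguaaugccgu
miR-200a-3p: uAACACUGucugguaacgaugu
Zeb2, named here after its values were seen, had a single distal region itself, shared with Mir5129, with heights of 58.6 in vehicle, 27 in UK5099 and 33.9 in lactate. The Zeb2 region was below vehicle in both treated libraries. A link between the Zeb2 and Mir200b regions was not tested.

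Among the families with members in the set, 22 interleukin, chemokine and receptor genes had a median ratio of UK5099 to vehicle of 1.35, with 10 at 1.5 or more and 1 at 0.5 or less. The shares of all genes at these limits were 9.28% and 1.33%, and those of all single distal regions 18.6% and 6.47%, which apply to each family count for UK5099. For each family count in lactate the shares of all genes are 6.2% and 0.498%, and those of all single distal regions 14.4% and 2.43%. In lactate the median of the 22 genes was 1.17, with 4 at 1.5 or more and 0 at 0.5 or less. The 3 with the greatest heights were between the limits in both comparisons with vehicle, with 234, 243 and 254 for the chemokine gene Ccl5, 205, 211 and 258 for Il9r and 159, 188 and 218 for Il23r in vehicle, UK5099 and lactate. In lactate the ratio was 1.26 (1.10 to 1.45) for Il9r and 1.37 (1.18 to 1.60) for Il23r. Il2, picked after its values were seen, had 24.7, 50 and 18.8. The 9 keratin regions had a median UK5099 ratio of 1.43, with 4 at 1.5 or more and none at 0.5 or less, and a median of 1.30 in lactate, with 3 and 1. The hair keratin gene Krt31 had 62.1, 136 and 98.9 and Krt72, a keratin of the inner root sheath, 66.7, 126 and 86.7, with UK5099 the highest library in both. The 8 serpin regions had a median of 1.69, with 4 at 1.5 or more and 1 at 0.5 or less, among them Serpinb13, a protease inhibitor of squamous epithelium, with 31.6, 72 and 42.9.

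For the 10 vomeronasal receptors the median was 1.53 in UK5099, with 5 at 1.5 or more and 2 at 0.5 or less, and 0.940 in lactate, with 1 and 3. Olfactory receptors had a median of 1.13 over 25 regions, with 5 and 2, and microRNA genes 1.13 over 90 regions, with 14 and 6. Solute carriers (33 regions) had 1.05, with 2 and 3, and small nucleolar RNA genes (23 regions) 1.19, with 2 and 0. These medians stand beside 1.10 for all single distal regions and 1.15 for all genes, and the families were not tested against either. A single distal region was found for 4 of 16 squamous markers, and none of these reached 1.5 in UK5099. Krt10 had 35.1, 46 and 56.1, 15 bases from an annotated start and at 1.60 times vehicle in lactate, Sprr1b, sharing its region with Sprr2k, had 43.1, 45 and 47.1, and Dsg1a and Dsc1 were lower, at 17.8, 23 and 15.5 and at 8.05, 11 and 10.8. Sprr3 and Kprp are not on this list. The secretory marker Defb50, a defensin gene, had 59.2, 118 and 81.5, at 1.99 times vehicle in UK5099 (1.52 to 2.62), with its region 246 bases from the Defb2 start. The other 3 defensin regions were lower in UK5099 than in vehicle, with 30.5, 16 and 30.2 for Defb42, 33.3, 16 and 17.0 for Defb29, and 14.4, 8 and 30.6 for Defb13, and the median UK5099 ratio of the 4 was 0.541, with 1 at 1.5 or more and 1 at 0.5 or less. The 4 genes of conjugating enzymes had a median of 0.607, with 1 and 2. Markers of other cell types stayed between the limits in UK5099, except Ptprc, the common leukocyte antigen gene, with 20.1, 32 and 24.0 and an interval of 0.95 to 2.65. In lactate Kdr, an endothelial receptor gene, had a ratio of 0.47 (0.31 to 0.71) from heights of 39.1, 28 and 18.4.

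The sequence of the regions was compared next, over the 1315 regions away from every annotated start. The AP-1 word TGANTCA was found in 460 of them (35.0%), against 36.0% of all 26959 regions of the table away from starts, 26.0% of all 44021 regions and 4.96% of single promoter regions. The CTCF motif was in 99 (7.53%), against 4.49% of all regions away from starts and 3.44% of all regions. The TEAD word was in 15.4%, the HOXB13 word in 8.06%, the GATA word in 7.91% and the forkhead word in 5.32%, against 15.2%, 8.33%, 7.85% and 5.27% of all regions away from starts. Over all 44021 regions the shares were 12.6%, 6.52%, 5.96% and 4.03%. A pair of p53 family CATG cores with 6 bases between was in 10 (0.760%), against 1.03% away from starts and 0.754% of all regions, and the E-box CANNTG in 69.3%, against 71.1% and 63.4%. A region may hold more than 1 of these words, and words at neighbouring positions may overlap.

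Regions with the AP-1 word had higher ratios of UK5099 to lactate than regions without it. The medians were 1.11 with the word (460 regions, quartiles 0.821 and 1.51) and 0.919 without it (855 regions, 0.7 and 1.21). Ratios of 1.5 or more were found in 25.4% with and 12.3% without the word, and ratios of 0.5 or less in 3.91% and 10.9%. Against vehicle, the medians in UK5099 were 1.15 with and 1.02 without the word, with 29.8% and 19.4% at 1.5 or more. In lactate they were 1.04 and 1.12, with 15.7% and 19.5% at 1.5 or more. The quartiles of the groups with and without the word overlapped in each comparison. Fos and Jun proteins, which bind this word as AP-1, were not measured here.

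GC content moved with these ratios too. From the lowest to the highest quartile class of GC content the median ratio of UK5099 to lactate was 1.09, 0.976, 0.941 and 0.903, and of UK5099 to vehicle 1.15, 1.10, 1.06 and 0.999. Lactate to vehicle was 1.08, 1.13, 1.08 and 1.08. Regions with the AP-1 word had a median GC content of 48%, those without it 51%. At or below the median GC content the ratio of UK5099 to lactate was 1.18 with the word (303 regions) and 0.957 without it (369 regions). Above the median GC content it was 0.995 with the word (157 regions) and 0.898 without it (486 regions). With a peak called in all 3 libraries it was 1.06 and 0.949, at lower mean height 1.18 and 0.922, and at higher mean height 1.06 and 0.918. In the 124 single promoter regions with the word it was 1.03, against 0.970 in the 2378 without it. The order was the same in each of these subsets, whose regions come from the same 3 libraries.

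Differences went with other words as well. Regions with the GATA word had a median ratio of UK5099 to vehicle of 1.10 against 1.06 without it, with 35.6% and 22.0% at 1.5 or more, from 104 regions whose median mean height was 21.8. With the forkhead word (70 regions) the median in lactate was 1.20 against 1.09. The CTCF regions were the most even, with 11.1% at 1.5 or more and 2.02% at 0.5 or less in UK5099, against 24.0% and 9.38% of regions without the motif. In lactate 11.1% of them reached 1.5, against 18.8%, and in UK5099 against lactate 7.07%, against 17.7%. Their median mean height was 26.9, against 25.4 without the motif. For the TEAD word the medians in UK5099 against vehicle were 1.07 with and 1.07 without it. For the HOXB13 word they were 1.02 and 1.07. In lactate the HOXB13 medians were 1.06 and 1.09, with 24.5% and 17.6% at 1.5 or more. The 10 regions with the p53 family pair had a median ratio of UK5099 to lactate of 1.22, against 0.970 without it. In UK5099 against vehicle 4 of them were at 1.5 or more (40%, against 22.9%). For the E-box the medians of UK5099 to lactate were 0.980 and 0.957.

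**Figure D5:**
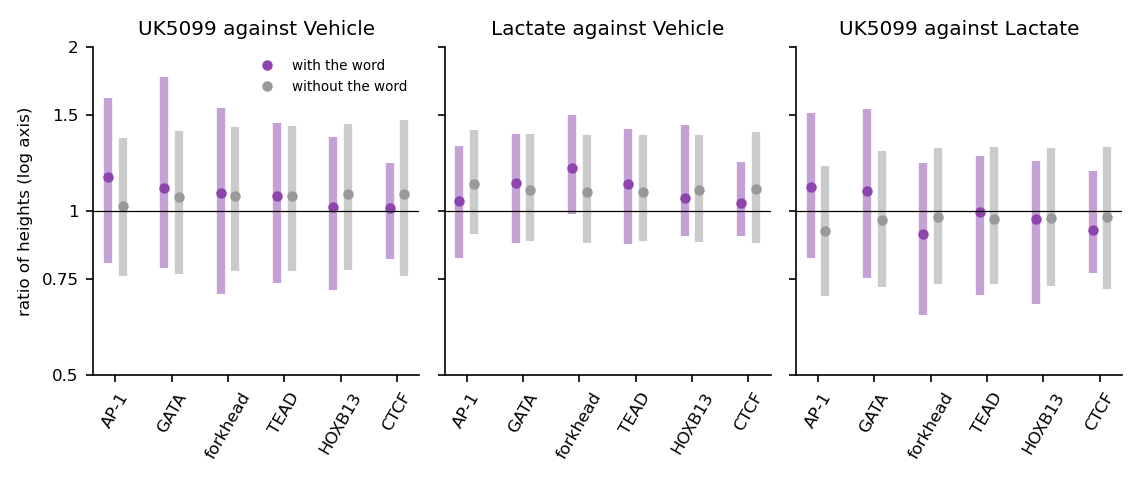
Median (point) and quartiles (bar) of the ratio of heights, on a log axis, for single distal regions away from every annotated start with and without each word in the 200-base window. Among the 6 words drawn, the AP-1 pair is the widest apart in UK5099 against lactate, at 1.11 and 0.919. The bars overlap in every pair. The E-box and the p53 family cores are not drawn. For the latter the medians are wider apart, at 1.22 and 0.970, with only 10 regions holding them.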

How the data were processed

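The 3 ATAC-seq libraries of mouse prostate organoids were analysed, 1 per treatment. Per the study's methods and the submitters' processing notes, reads were aligned to mm10 with BWA and peaks called per library with MACS (MACS3 in the notes, an earlier version in the methods). Reads were extended and stacked in small bins. Of a transposase shift of reads nothing is said, and it counts as not given in the sources used here. In the 1 table deposited by the authors, with a row per gene, the signal values are the average peak height over the merged regions of a gene. The deposited heights are multiples of the value of 1 stacked read, which was 0.575 for vehicle, 1 for UK5099 and 0.471 for lactate, to within 0.05 of a whole number in 100% of genes with 1 region. Peaks of a further library, not analysed here, also entered the merging, and the columns naming the library with the greatest peak were not used. No total read count was used.

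Regions were selected with called peaks more than 1000 bases from the gene start. Each position was the gene start plus or minus the deposited distance, centres within 500 bases were joined into 44021 regions, and windows of 200 bases were read from GRCm38. Starts and exons came from GENCODE M21. Gene types were matched by gene ID in RefSeq, and 7.48% had no match. Ratios had no pseudocount, with limits of 1.5 and 0.5. Intervals are exact conditional 95% intervals from stacked reads, which are not separate molecules, so they cover counting error only. Members and lists were chosen with earlier results of these data known. Genes were named by rule: per comparison the 8 highest and 8 lowest ratios at or above the median mean height of 31.9, with named genes before predicted models, the 8 greatest heights, 3 per position, up to 4 per list, and 3 on each side of the distance limit. Those described are a subset. Ratios were tested on simulated data. Python 3.11.15, numpy 2.4.6, pandas 2.3.3, scipy 1.17.1 and matplotlib 3.10.9 were used. Alternatives covered scaling, a pseudocount, height filters, identical rows, distance limits, called peaks, ratio limits and annotated starts. The sequence of 1 region is not reported here.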

Additional observations from a re-analysis of the deposited data

How the results depend on the processing

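Of 123 alternative values, 4 turned direction and 41 moved beyond the limit set for a change (1.5 times for counts). The other 78 stayed within it. Median ratios to vehicle turned below 1 with libraries scaled to a common median ratio or to equal totals, to 0.957 and 0.952 for UK5099 and to 0.954 and 0.953 for lactate. UK5099 against lactate went from 0.969 to 0.988 and 0.984. With mean height at or above the lower quartile or the median of all genes, with a peak called in all libraries, and away from every annotated start, the medians were 1.14, 1.16, 1.13 and 1.07 for UK5099 and 1.17, 1.18, 1.14 and 1.09 for lactate. Counts at 1.5 or more in UK5099 against vehicle, 382 (18.6%) as reported, were 175 at a limit of 2. Under the filters on height (lower quartile, median) and calls they were 122, 57 and 153. These were 13.3%, 9.90% and 13.2% of the 917, 576 and 1162 regions left. In lactate, 297 (14.4%) became 147 under either scaling and 81 at a limit of 2. Under the filters they became 94, 41 and 113 (10.3%, 7.12% and 9.72%). In UK5099 against lactate, 266 (12.9%) became 59, 25 and 83 under the filters (6.43%, 4.34% and 7.14%), and 110 at a limit of 2. Counts at 0.5 or less went from 133 to 63 with a pseudocount of 5.61, to 19, 3 and 16 under the filters and to 280 at the inverse of 1.5 in UK5099; from 50 to 102 and 103 under the scalings, 14, 2, 0 and 5, and 148 in lactate; and from 127 to 62, 18, 3, 21 and 306 in UK5099 against lactate. Under the filters, counts at 0.5 or less fell from 6.47% to 2.07%, 0.521% and 1.38% of regions in UK5099. In lactate they fell from 2.43% to 0.218%, 0% and 0.43%. In UK5099 against lactate they fell from 6.17% to 1.96%, 0.521% and 1.81%. Fewer regions enter under the filters, and what lowered the shares was not tested. Each scaling divides all ratios of a pair of libraries by the same number. The pseudocount draws ratios toward 1, and other ratio limits move the cut. The widest log2 gap between the medians of the position classes was 0.08 for UK5099, 0.07 for lactate and 0.01 for UK5099 against lactate. With mean height at or above the lower quartile it was 0.07, 0.04 and 0.09, and at or above the median 0.01, 0.08 and 0.06. No paired analysis was possible because each group holds 1 library, and no replicate could be left out.

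Low regions rest on few stacked reads, least in UK5099, and the called peaks that chose the regions come from the same libraries as the heights. With 1 library per group, treatment and culture cannot be told apart.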
